A study of Mus musculus with 8 samples.

Results

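Some of the genes measured in tumor-educated macrophages (TEMs) had few reads in floxed controls and clearly more in TEMs with the Cre recombinase. These 9 genes, of 18635 in the deposited table, are Slc15a2, Slco2b1, Crym, Kcne3, Stard10, Plekha7, Syt17, Tpbgl and Myh10. They were chosen by their measured normalized counts, low in all controls and higher in all Cre samples, so their difference between the genotypes is a description here and carries no test. The normalized count is the number of reads of a gene divided by the size factor of its library.

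The RNA-seq data cover 4 libraries of Phgdh fl/fl TEMs (controls) and 4 of Phgdh fl/fl Cx3cr1-Cre TEMs (Cre TEMs). Both groups were bone marrow-derived macrophages of mice aged 6 to 8 weeks on a C57BL/6 background, held for 24 h in medium conditioned by AE17 cells, a murine mesothelioma line. Both carried the floxed Phgdh allele, which encodes the first enzyme of serine synthesis, and the controls were littermates without Cre. The Cre was expressed from the locus of the fractalkine receptor Cx3cr1, with a wild-type allele on the other chromosome, so that the groups differed in both Phgdh and Cx3cr1.

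The libraries held between 38219563 and 47027420 reads on genes. Phgdh fell from a normalized count of 117 ± 9.82 to 27.1 ± 9.39 (SD, n = 4 each) and Cx3cr1 from 1075 ± 94.2 to 660 ± 32.2 (limma adjusted p = 5.1e-08 and 1.9e-09). All 8 macrophage markers examined were in the table, and their summed normalized count lay between 987727 and 1076549 in controls and between 974279 and 1049665 in Cre TEMs. Lyz2 made up most of this sum. Of the 8 markers 4 were called as lower in Cre TEMs (limma adjusted p under 0.05) and none as higher. Over all tested genes, 41.0% were called in either direction and 20.3% as lower. The log2 fold changes of the 4 markers were -0.70 for Cx3cr1, -0.40 for Fcgr1, -0.19 for Itgam and -0.084 for Adgre1. Their part in the values of the members was not tested.

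Most of the 9 genes encode proteins known best from polarised or excitable cells. Slc15a2 and Slco2b1 are membrane carriers, for di- and tripeptides and for organic anions such as steroid sulfates. Kcne3 is a small accessory subunit that tunes voltage-gated potassium channels in epithelia. Crym binds thyroid hormone in the cytosol, Stard10 carries phospholipids between membranes, and Syt17 is a member of the synaptotagmin family of membrane trafficking proteins. Plekha7 belongs to the adherens junction, Myh10 is the heavy chain of nonmuscle myosin IIB, and Tpbgl encodes a leucine-rich repeat membrane protein related to trophoblast glycoprotein.

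Most of the members lie close together in the genome. Position was no part of the rule that chose them, but the list was drawn up with results of these data known, in which a run of changed genes on chromosome 7 had been seen. In mm10, 7 of the 9 lie on chromosome 7 between 99624082 and 120202111, a stretch of 20.6 Mb. Tpbgl (99624082 to 99627103, minus strand), Slco2b1 (99657804 to 99711340, minus), Kcne3 (100176502 to 100184869, plus) and Stard10 (101317086 to 101346626, plus) lie at one end of it. Plekha7 (116123485 to 116308376, minus), Syt17 (118380717 to 118448222, minus) and Crym (120186380 to 120202111, minus) lie at the other. The starts of transcription of Tpbgl and Slco2b1 are 0.0842 Mb apart, while 14.99 Mb separate Stard10 from Plekha7. Slc15a2 (36750177 to 36784962, minus) is on chromosome 16 and Myh10 (68691559 to 68816632, plus) on chromosome 11. None of the members lies on chromosome 3 with Phgdh or on chromosome 9 with Cx3cr1.

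Promoter windows are shown for Slco2b1 and Tpbgl, the neighbouring members that had the fewest reads in controls among those of chromosome 7 with a window, and for Slc15a2, which had the largest fitted log2 fold change. They run from 250 bases before to 30 bases after the start of transcription in RefSeq (GRCm38.p6, the assembly of mm10). Slco2b1 occupies chr7:99711311-99711590 and Tpbgl chr7:99627074-99627353, and Slc15a2 (chr16:36784933-36785212) was added after its counts were seen. All are on the minus strand and are written 5′ to 3′, with matches to the motifs searched in capitals.
Slco2b1: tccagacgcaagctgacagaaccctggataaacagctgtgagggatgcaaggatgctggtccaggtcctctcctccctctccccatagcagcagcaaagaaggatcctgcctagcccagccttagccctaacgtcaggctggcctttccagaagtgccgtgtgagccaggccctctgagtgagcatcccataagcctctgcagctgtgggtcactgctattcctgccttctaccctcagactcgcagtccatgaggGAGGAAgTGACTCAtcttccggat
Tpbgl: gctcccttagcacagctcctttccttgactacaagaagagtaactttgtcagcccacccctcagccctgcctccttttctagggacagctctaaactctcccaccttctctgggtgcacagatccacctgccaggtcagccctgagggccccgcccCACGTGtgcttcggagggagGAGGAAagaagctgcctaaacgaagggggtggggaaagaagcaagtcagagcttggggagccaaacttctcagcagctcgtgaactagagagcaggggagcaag
Slc15a2: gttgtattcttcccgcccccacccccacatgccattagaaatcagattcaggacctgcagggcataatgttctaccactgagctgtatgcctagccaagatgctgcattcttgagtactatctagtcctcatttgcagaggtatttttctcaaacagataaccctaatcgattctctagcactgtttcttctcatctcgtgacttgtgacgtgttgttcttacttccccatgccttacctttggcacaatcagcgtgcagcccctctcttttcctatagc
On both strands GAGGAA (the core of sites of the macrophage factor PU.1), TGANTCA (AP-1), TGATGNAA (ATF4 and CHOP), CACGTG (E-box) and TATAAA were searched. The Slco2b1 window held GAGGAA 6 bases after the start and TGANTCA 13 bases after it, side by side without overlap. The Tpbgl window held CACGTG at -94 and GAGGAA at -74, and the Slc15a2 window held none of the 5 motifs. Among 32851 RefSeq windows of this length, GAGGAA occurred in 26.0%, TGANTCA in 7.46%, TGATGNAA in 3.81%, CACGTG in 6.79% and TATAAA in 13.1%. Each of the 3 windows held 5 CG dinucleotides, against a median of 6 over all windows. Windows were also found for Kcne3, whose window had TGANTCA at -37, and for Stard10 and Myh10, which had no match. The RefSeq start lay 168 bases from the GENCODE start in Kcne3 and 356 bases in Myh10. Crym, Plekha7 and Syt17 were not matched.

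Among the carriers, the difference was large for both members. Slc15a2 had normalized counts of 1.86, 1.84, 1.03 and 0 in controls, that is 5 reads in 4 libraries. In Cre TEMs it had 105, 103, 107 and 116. The gene was thus at the edge of detection in each control and at a like level in each Cre sample. The ratio of reads was 90.0, with an exact 95% interval (Clopper-Pearson on the share of reads) of 38.3 to 279 that covers counting error only. As the gene was chosen by this difference, the interval is a description and no test. In bulk RNA, fewer cells with a transcript and less transcript per cell cannot be told apart, here and for the other members.

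Slco2b1 had normalized counts of 7.44, 4.60, 5.17 and 4.77 in controls and 78.8, 81.1, 81.3 and 80.7 in Cre TEMs. Its mean was 5.49 ± 1.32 in controls and 80.5 ± 1.17 in Cre TEMs (SD, n = 4 each), a ratio of 14.6 (exact 95% interval 9.57 to 23.4, counting error only). This interval, too, is a description, since the difference chose the gene. The Cre samples were closer together than counting predicts, with a coefficient of variation of 1.45% against 11.3% from counting. In 5 of the 9 members, Slco2b1 included, the Cre samples varied less than counting predicts. Of its exonic bases, 7.91% are shared with the antisense gene Gm15635 and 1.31% with the antisense gene Gm34280. Neither has a row in the table used here. The strand setting of the counting is not given in the sources used here, so reads of antisense transcripts in those bases could have been included.

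Crym had 0 reads in all 4 controls. It had normalized counts of 24.8, 43.6, 46.8 and 50.6 in Cre TEMs, where replicate 1 was the lowest. Against a floor of 3 reads per library, its mean of 41.4 ± 11.5 (SD, n = 4) was at least 14.4-fold higher than in controls. The 14.4 rests on that floor and cannot be set beside the intervals of Slc15a2 and Slco2b1. By their method, the exact 95% interval of its ratio of reads had a lower bound of 47.0. This bound covers counting error only and is a description, since the difference chose the gene. Of the 9 members, Crym was the only one without a read in any control.

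Kcne3 had normalized counts of 16.7, 20.2, 15.5 and 8.59 in controls and 64.1, 68.6, 59.98 and 49.6 in Cre TEMs. Its mean was 15.3 ± 4.89 in controls and 60.6 ± 8.12 in Cre TEMs (SD, n = 4 each), and replicate 4 was the lowest of each genotype. The lowest Cre sample was well above the highest control.

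Stard10 had normalized counts of 80.0, 76.4, 70.3 and 106 in controls and 344, 309.7, 257 and 293 in Cre TEMs. With 348 reads over the 4 control libraries it was low rather than nearly silent. The other members had fewer reads there, from 0 for Crym to 87 for Myh10. Its mean was 83.1 ± 15.7 in controls and 301.0 ± 36.2 in Cre TEMs (SD, n = 4 each).

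Syt17 had normalized counts of 6.51, 19.3, 4.13 and 8.59 in controls and 39.4, 35.3, 22.4 and 35.0 in Cre TEMs. The highest control (replicate 2) and the lowest Cre sample (replicate 3) came within 3.04 normalized counts of each other, the smallest distance among the members. Its mean was 9.64 ± 6.71 in controls and 33.0 ± 7.38 in Cre TEMs (SD, n = 4 each).

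Plekha7, the junction protein, had normalized counts of 13.0, 8.28, 5.17 and 8.59 in controls and 34.9, 34.3, 38.6 and 31.1 in Cre TEMs. Its mean was 8.76 ± 3.23 in controls and 34.7 ± 3.08 in Cre TEMs (SD, n = 4 each). Myh10, the myosin, had 21.4, 19.3, 19.6 and 22.9 in controls and 74.3, 63.4, 67.1 and 66.1 in Cre TEMs. Its samples were even within each genotype, with means of 20.8 ± 1.66 and 67.7 ± 4.63 (SD, n = 4 each). For both genes the groups were far apart.

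Tpbgl, an intronless gene, had normalized counts of 21.4, 12.9, 13.4 and 12.4 in controls and 45.0, 35.3, 48.8 and 47.7 in Cre TEMs. Replicate 1 was the highest control, and its groups did not overlap either. The mean was 15.03 ± 4.26 in controls and 44.2 ± 6.12 in Cre TEMs (SD, n = 4 each). Of its exonic bases, 38.7% are shared with Gm10605, a long intergenic RNA on the opposite strand whose own mean normalized count was 5.77 in controls and 7.92 in Cre TEMs. Reads of the 2 genes in those bases cannot be told apart without the strand.

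**Figure D1:**
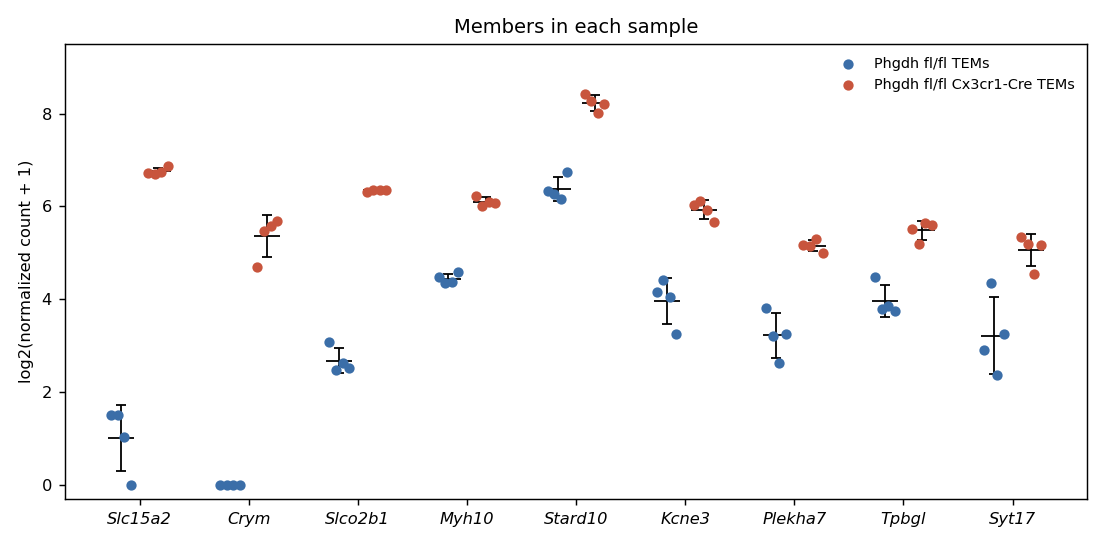
Each point is a sample and the vertical axis gives log2(normalized count + 1) for the 9 members, with controls in blue and Cre TEMs in red, and with the mean and SD of 4 samples as a bar and whiskers. No member has overlapping groups, Crym lies at 0 in all controls, and Stard10 is the highest member in both genotypes.

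In all 9 members the 4 Cre samples lay above the 4 controls, and all 9 had a log2 fold change over 1, which the choice of the genes brought about. Over all 13629 tested genes, which are those whose mean normalized count reached 10, the groups did not overlap in 36.7%, and in 18.4% they did not overlap with Cre TEMs higher. The fit across all genes (limma on log2(normalized count + 1), adjusted p under 0.05) called 41.0% of the tested genes, 20.8% as higher and 20.3% as lower in Cre TEMs. With an absolute log2 fold change over 1 as well, it called 1.2%. All 9 members were tested, and 5 of them had a mean below 10 in controls and passed the filter through the Cre group.

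Log2 fold changes of the members, on the scale of log2(normalized count + 1), were 5.75 for Slc15a2, 5.36 for Crym, 3.67 for Slco2b1, 1.97 for Kcne3, 1.93 for Plekha7, 1.85 for Stard10, 1.84 for Syt17, 1.66 for Myh10 and 1.52 for Tpbgl. The value of Crym depends on the pseudocount and is no bound. Under the other settings examined it lay between 5.08 and 8.65, and that of Slc15a2 between 5.41 and 7.05. The rule required all 4 Cre samples to be higher, so the following order is a description. Replicate 1 of the Cre TEMs was the highest in 3 members, replicate 2 in 1, replicate 3 in 3 and replicate 4 in 2, and each was also the lowest in at least 2 members.

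Set per length, as FPKM computed from the recovered reads and GENCODE exon lengths, all 9 members lay below 1 in controls and 8 of 9 lay below 1 in Cre TEMs. The FPKM in controls was 0 for Crym and 0.0037 ± 0.0028 for Slc15a2. It was 0.0156 ± 0.00578 for Plekha7 and 0.0213 ± 0.00513 for Slco2b1, 2 values that did not differ beyond their spread. It was 0.0428 ± 0.0298 for Syt17 and 0.0459 ± 0.00365 for Myh10, which did not differ beyond their spread either. Tpbgl (0.115 ± 0.0327) and Kcne3 (0.198 ± 0.0636) differed by less than their summed SDs, and Stard10 was the highest at 0.793 ± 0.149 (SD, n = 4 for each gene). Of all genes in the table, 42.6% had a lower mean FPKM in controls than Stard10.

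In Cre TEMs the order changed. The FPKM was 2.90 ± 0.345 for Stard10 and 0.794 ± 0.107 for Kcne3. Tpbgl (0.341 ± 0.0469), Slc15a2 (0.341 ± 0.0178), Slco2b1 (0.315 ± 0.00522) and Crym (0.285 ± 0.0792) followed. In this order Slc15a2 and Slco2b1 differed by slightly more than their summed SDs, and the other neighbours among these 4 genes by less. Myh10 (0.151 ± 0.01002) and Syt17 (0.148 ± 0.0329) lay together, and Plekha7 was the lowest at 0.0626 ± 0.00562 (SD, n = 4 for each gene). Of all genes in the table, 57.0% had a lower mean FPKM in Cre TEMs than Stard10 and 16.3% had a lower one than Plekha7.

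Position along chromosome 7 was compared next, with the genes that lie among the members. Of the 144 tested non-members between Tpbgl and Crym, 91 (63.2%) were called, 52 as higher and 39 as lower in Cre TEMs. On the rest of chromosome 7, 333 of 925 tested genes (36.0%) were called, and on the other chromosomes 5161 of 12551 (41.1%). The groups did not overlap in 54.2% of the non-members of the stretch and in 36.7% of all tested genes. Their median absolute log2 fold change was 0.20, against 0.12 over all tested genes. Called genes with an absolute log2 fold change over 1 made up 9 of the 144 (6.25%), 8 of the 925 (0.865%) and 138 of the 12551 (1.10%).

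Genes of the stretch were somewhat more abundant than others, with a median of the mean normalized count of 1030 against 832 over all tested non-members. Among protein-coding genes alone, 82 of 118 non-members of the stretch (69.5%) were called, against 5223 of 11704 over the genome (44.6%). The bounds of the stretch were set by the members, and the run of changed genes there was known when they were chosen. The shares are therefore a description of a region picked in part for its changed genes, and no test was run on them.

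**Figure D2:**
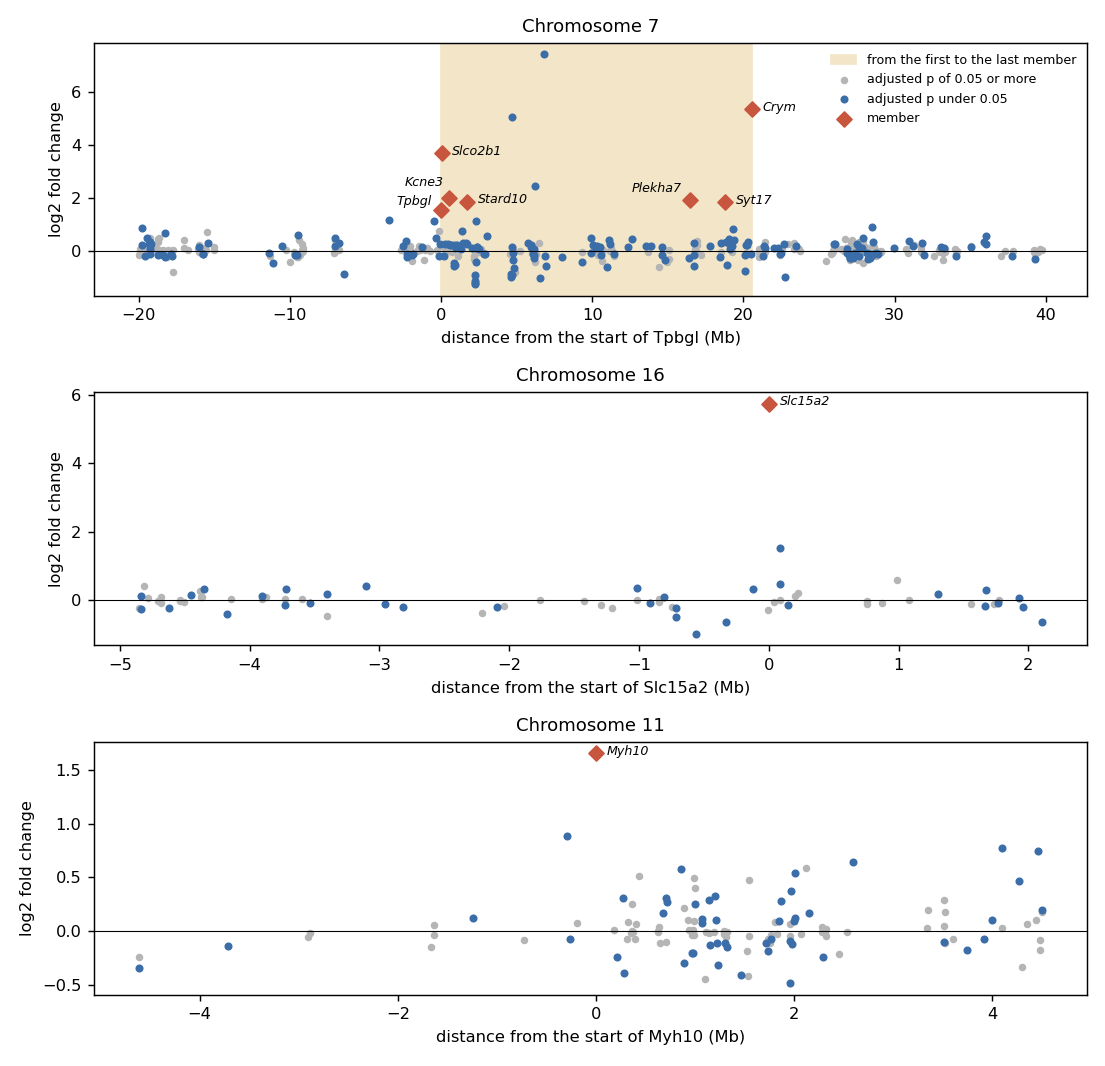
Each point is a tested gene, placed by its distance in Mb from Tpbgl, Slc15a2 or Myh10 and by its log2 fold change, Cre TEMs over controls. Members are red diamonds, genes with an adjusted p under 0.05 are blue and other genes grey. Within the shaded 20.6 Mb of chromosome 7 genes lie both above and below 0, and on chromosomes 16 and 11 the member stands alone at the top.

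Called genes and large changes were spread differently over the stretch. In steps of 5 Mb from its start, 38 of 56, 16 of 26, 16 of 30, 15 of 25 and 6 of 7 non-members were called, that is between 53.3% and 85.7%. Outside, 12 of 29 (41.4%) were called in the 5 Mb before the stretch and 10 of 29 (34.5%) in the 5 Mb after it. Further out the shares were 30.4% at 5 to 10 Mb before and 27.4% at 5 to 10 Mb after. The share thus lay above that of all tested genes in each segment inside and close to it or below it in the flanks up to 10 Mb. In the segment 10 to 15 Mb before the stretch 3 of only 6 genes were called. The 9 called non-members with an absolute log2 fold change over 1 were all in the first 10 Mb of the stretch, 6 in the first 5 Mb and 3 in the next, and none lay further along it. In the 5 Mb before the stretch 2 of 29 genes (6.90%) were of this kind, a share no lower than the 6.25% inside it.

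Of all 164 calls with an absolute log2 fold change over 1, 24 were on chromosome 7 and 16 of these in the stretch, the 7 members there included. Counts per gene hold no information on alleles. A difference in transcription and a difference in inherited DNA within the stretch therefore cannot be told apart here.

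**Figure D3:**
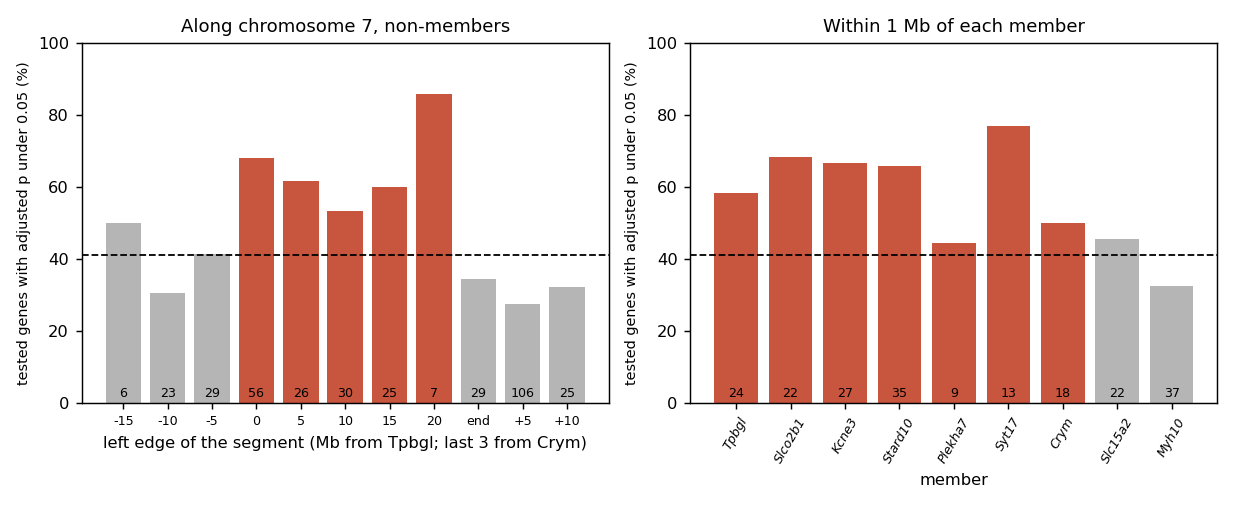
Bars give the percentage of tested non-member genes with an adjusted p under 0.05, on the left for segments of chromosome 7 (red inside the stretch, grey outside) and on the right within 1 Mb of each member (red on chromosome 7, grey elsewhere). The number of genes stands in each bar and the dashed line marks 41.0%, the share over all tested genes. Every red segment on the left lies above the line, and on the right Myh10 lies below it at 32.4%.

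Within 1 Mb of the start of any member, 76 of 151 tested non-members (50.3%) were called, 45 as higher and 31 as lower in Cre TEMs. Around Slco2b1 15 of 22 (68.2%) were called, around Kcne3 18 of 27 (66.7%), around Stard10 23 of 35 (65.7%), around Tpbgl 14 of 24 (58.3%) and around Syt17 10 of 13 (76.9%). Around Crym 9 of 18 were called and around Plekha7 4 of 9. The windows of Tpbgl, Slco2b1, Kcne3 and Stard10 overlap, so that many of their genes are the same and these shares are not independent of each other. For the members off chromosome 7, the counts were 10 of 22 around Slc15a2 (45.5%) and 12 of 37 around Myh10 (32.4%). The surroundings of Myh10 thus had a share below the 41.0% of all tested genes.

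The neighbours moved in both directions. At 0.540 Mb from Stard10, the macrophage folate receptor gene Folr2 had 25577 ± 763 normalized counts in controls and 10563 ± 131 in Cre TEMs (SD, n = 4 each), and fell by 1.28 on the log2 scale. The other folate receptor gene Folr1 fell by 1.16 on the log2 scale, the microRNA gene Gm22655 by 1.22, and Anapc15, a subunit of the anaphase-promoting complex, by 0.92. Anapc15 overlaps Folr1 and holds Gm22655 within its bounds. How reads in overlapping bases were assigned is not given in the sources used here, so the counts of these genes may not be independent. Lrrc51, also within 1 Mb of Stard10, rose by 1.13, and Dgat2, the enzyme of the last step of triglyceride synthesis, rose by 1.12 near Tpbgl. Near Crym the pseudogene Ppp1ccb fell by 0.79. All of these had a limma adjusted p under 0.05 and groups that did not overlap.

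Near Slc15a2 the unclassified gene model Gm49599 rose by 1.52 on the log2 scale and Csta2, of the stefin family of protease inhibitors, fell by 0.99. A second stefin gene, Stfa2, lies 0.377 Mb from Slc15a2, had 10 reads over the 4 controls and none in Cre TEMs, and was below the filter. The netrin gene Ntn1, near Myh10, rose by 0.88. At 0.00185 Mb from the start of Crym, the next gene Abca14 had 3.84 ± 0.833 normalized counts in controls and 12.4 ± 3.41 in Cre TEMs (SD, n = 4 each) and was also below the filter. Both Stfa2 and Abca14 were picked after seeing their values.

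Genes with the pattern of the members were then sought in the whole table. The pattern was measured over the 8 samples as the gap, the log2 ratio of the lowest Cre sample to the highest control with 1 added to each normalized count. Of 7929 genes with a mean in controls no higher than that of Stard10, 411 had a gap above 0. Of these, 180 had a gap at least as large as that of Syt17, the 9 members among them, and 11 of the 180 lay in the stretch. A gap over 3 was found in 9 genes, namely Slc15a2 (5.18), Crym (4.69), Slco2b1 (3.24) and 6 non-members. A gap over 1 was found in 7 of the members and in 21 non-members. The list of 9 members is thus a selection from a longer series of such genes.

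Just inside the gap of Syt17 (0.201) lay Syt3 (0.203) and Ly6m (0.202), and just outside it Osbp2 (0.199) and Gm42549 (0.195). The 12 non-members with the largest gap were mainly pseudogenes or members of multigene families. Their gaps, from 1.83 to 7.07, all lay above that of Myh10 (1.43). They therefore do not stand for genes like the members with smaller gaps. The processed pseudogenes Rps15a-ps8 (4.22 ± 3.13 in controls, 1318 ± 59.8 normalized counts in Cre TEMs) and Gm14513 (2.93 ± 2.95 and 930.2 ± 39.0) led with gaps of 7.07 and 6.96. The unprocessed pseudogene Gm4759 (0.747 ± 0.981 and 266 ± 11.9), Trim34b (3.65 ± 1.85 and 144 ± 13.96), of the tripartite motif family, and the unprocessed pseudogene 9130208D14Rik (59.1 ± 1.84 and 322 ± 5.58; SD, n = 4 for all) lay in the same stretch of chromosome 7 as 7 of the members. Gm44075, Gm15238 and Tex19.1 had no read in any control. Gm15446, Xlr3b, Mrpl48-ps and Gm5510 completed the 12. Pseudogenes and genes of multigene families can share reads with near-identical copies, so these counts are uncertain. Sequence identity was not measured here.

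**Figure D4:**
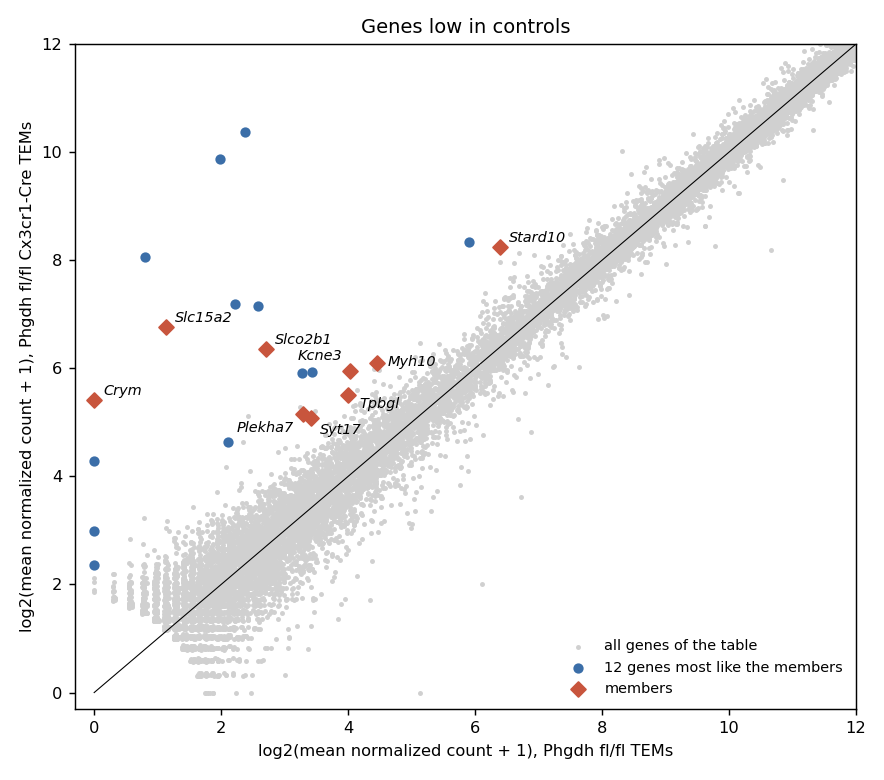
Each point is a gene, with log2(mean normalized count + 1) in controls on the horizontal and in Cre TEMs on the vertical axis, and the line marks equal values. The members (red) and the 12 non-members with the largest gap (blue, labelled as most like the members) stand above the cloud of all genes (grey). Crym lies on the left edge at 0 and Stard10 furthest to the right.

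Relatives and partners of the members were described by list. Of 148 listed genes 98 were in the table and 76 were tested, and 49 of these (64.5%) were called, 32 as higher and 17 as lower in Cre TEMs, against 41.0% of all tested genes. The 98 genes were all protein-coding, and 44.6% of all tested protein-coding non-members were called. With a filter at a mean of 50, the share called was 71.9% in the lists and 48.2% over the table. The share thus depends on abundance, which was not matched between the lists and the table. Some listed genes were far above the median of 832 normalized counts of all tested non-members, such as Rhoa (22178 in controls). Others were below it, such as Syt7 (13.0 in controls). The median log2 fold change of the 76 tested genes was 0.087, against -0.0018 over all tested genes, and none had an absolute log2 fold change over 1.

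Among transporters, 3 of 5 tested peptide transporter genes were called, all as higher. The lysosomal histidine and peptide carrier Slc15a3 rose by 0.24 on the log2 scale, with 14022 ± 864 normalized counts in controls and 16535 ± 1031 in Cre TEMs (SD, n = 4 each), and Tap1, of the antigen peptide pump, rose by 0.24 as well. Per length, Slc15a3 had an FPKM of 58.9 in controls, against 0.0037 for Slc15a2. Of the organic anion carriers tested, 2 of 3 were called, with Slco3a1 at 0.49 and Slco4a1 at 0.41 on the log2 scale.

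Of the thyroid hormone genes, 10 of 11 were called, 8 as higher and 2 as lower, with a median log2 fold change of 0.16. Dio2, the deiodinase that activates thyroxine, had 473 ± 43.0 normalized counts in controls and 922 ± 86.9 in Cre TEMs (SD, n = 4 each) and rose by 0.96 on the log2 scale (limma adjusted p = 3.1e-10). Klf9, a target of the thyroid hormone receptor, rose by 0.48, and the corepressor Ncor1 rose by 0.24. Slc16a10, a carrier of thyroid hormones and aromatic amino acids, fell by 0.25.

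Of the potassium channel genes set beside Kcne3, 3 of 7 were called, 1 as higher and 2 as lower, a share of 42.9%. The calcium-activated channel gene Kcnn4 fell by 0.33 on the log2 scale and the leak channel gene Kcnk13 by 0.18. Of the lipid transfer genes with a START domain, 8 of 13 were called, 5 as higher and 3 as lower. Stard13 rose by 0.49, Stard9 by 0.42 and the ceramide carrier Cert1 by 0.24, while Stard3nl fell by 0.24.

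Of the PLEKHA family and the zonula adherens, 10 of 17 genes were called, 6 as higher and 4 as lower. Afadin (Afdn), which links nectins to actin, rose by 0.48, plakoglobin (Jup) by 0.55 and Plekha8 by 0.25 on the log2 scale, while Ctnnd1, a catenin to which Plekha7 binds, fell by 0.28. Of the synaptotagmins and their relatives, 5 of 8 were called, 4 as higher and 1 as lower, among them Esyt2 (0.27), Syt11 (0.26), Syt7 (0.77) and Syt3 (0.49). The call of Syt7 was lost without control replicate 2 (limma adjusted p = 0.0543) and without Cre replicate 2 (0.0873) or 4 (0.0745). That of Syt3 was lost without control replicate 4 (0.0753), without Cre replicate 1 (0.0735) and with DESeq2 (0.0667).

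Of the nonmuscle myosin II genes and their regulators, 8 of 12 were called, 3 as higher and 5 as lower. S100a4, which binds nonmuscle myosin, fell by 0.40 on the log2 scale, the light chain gene Myl12a by 0.28 and Rhoa by 0.16, while the phosphatase subunit Ppp1r12a rose by 0.17. Per length, the main myosin II heavy chain gene Myh9 (named after its values were seen) had an FPKM of 84.3 in controls and 80.9 in Cre TEMs, against 0.0459 and 0.151 for Myh10. The paralog of Tpbgl, Tpbg, had 9.46 ± 3.24 and 9.12 ± 3.63 normalized counts (SD, n = 4 each) and lay below the filter.

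**Figure D5:**
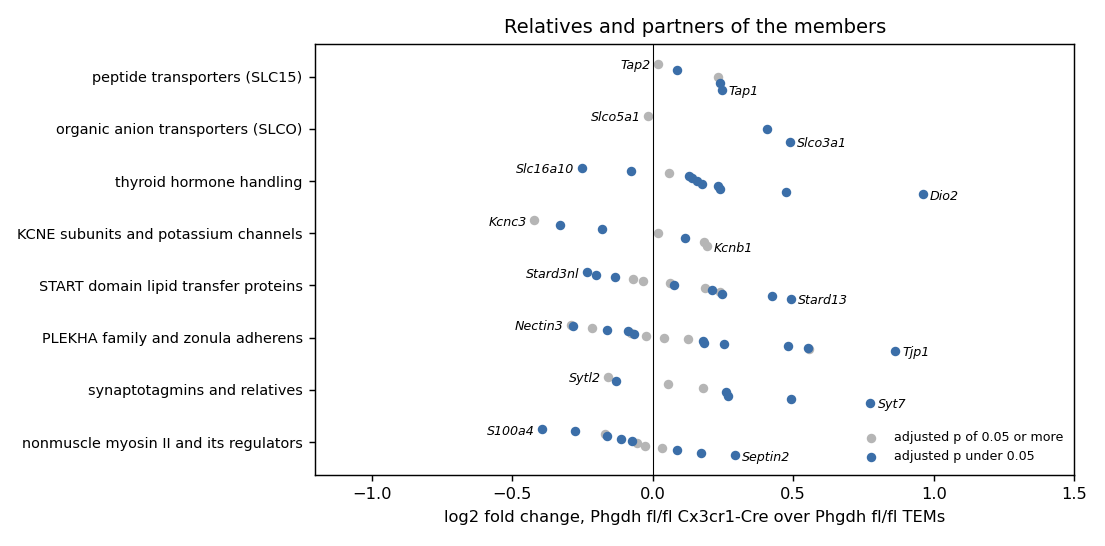
Each point is a tested gene of the lists of relatives and partners, placed by its log2 fold change, Cre TEMs over controls, with blue for an adjusted p under 0.05 and grey for other genes. All points lie between -1 and 1, with Dio2 the furthest to the right at 0.96.

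Since several members are better known from other cells, markers of such cells were examined. Of 8 stromal markers 6 were in the table, and their summed normalized count was 127 to 165 in controls and 138 to 184 in Cre TEMs. Of 8 epithelial or mesothelial markers 2 were in the table (31.6 to 46.7 in controls and 32.2 to 42.7 in Cre TEMs), and Epcam, Krt8, Krt18, Krt19, Msln and Wt1 had no row. Dendritic cell markers (3 of 6) summed to 43.7 to 68.7 and 63.4 to 88.4, mast cell markers (1 of 5) to 2.07 to 6.68 and 4.16 to 7.12, and lymphocyte markers (2 of 7) to 11.2 to 19.6 and 7.12 to 23.3. Few genes of these 5 lists reached the filter, namely 2 stromal, 1 epithelial or mesothelial, 2 dendritic, 1 lymphocyte and 0 mast cell markers. None of these tested genes was called.

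Some markers of 3 further cell types were called, beside 41.0% of all tested genes. The only neutrophil marker with a row, S100a8 (1 of 8), was called as higher, with 467 to 575 normalized counts in controls and 576 to 631 in Cre TEMs. Of the endothelial markers (3 of 5, all 3 tested) only Kdr was called, as higher by 0.31 on the log2 scale. Pecam1 (0.041) and Cdh5 (-0.31) were not called, and the sum was 601 to 698 in controls and 728 to 791 in Cre TEMs. Of the megakaryocyte markers (4 of 5, 3 tested) Pf4 (-0.42) and Ppbp (-0.64) were called as lower, and Itga2b (0.085) was not called. The sum was 4051 to 4335 in controls and 3022 to 3158 in Cre TEMs. The part of these markers in the values of the members was not tested.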

How the data were processed

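RNA of 8 samples was analysed, 4 of each genotype, grouped as labelled by the submitters. The authors mapped single-end reads of a directional library kit to mm10 with TopHat2, counted them per gene with HTSeq 0.6 and used DESeq2, per the labels and the study's methods. The strand setting is not given in the sources used here. For each gene and library the authors deposited a normalized signal, the read count over the size factor of that library (0.889 to 1.09). Whole reads were recovered for 100% of the 144353 values above 0, within 0.01 of a read, and no gene had fewer than 10 reads over the 8 samples. The table also holds the authors' mean, log2 fold change, standard error, statistic and p-values, which were not used.

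The members and the gene lists were chosen with earlier results of these data known, as was the stretch of chromosome 7, where a run of changed genes had been seen. For the comparison of genotypes, limma 3.58.1 (R 4.3.3) was fitted to log2(normalized count + 1) without covariates, with eBayes and a mean-variance trend, for the 13629 genes whose mean reached 10 normalized counts. The test was two-sided, and an adjusted p under 0.05 (Benjamini-Hochberg over all of these genes) defined a call. On this scale the change of low genes is understated. Positions and exon lengths came from GENCODE M21, where 18629 of the 18635 genes were found, and promoter windows from RefSeq, where 6 of the 9 members were matched. Values in FPKM were computed from the recovered reads.

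Genes named are the members, Phgdh and Cx3cr1, up to 4 called genes of each list and up to 10 called neighbours within 1 Mb, each with the largest absolute log2 fold change and groups that do not overlap, and the 12 non-members with the largest gap. Alternatives were edgeR 4.0.16 and DESeq2 1.42.0 on the recovered reads, a pseudocount of 0.1, scaling to total reads, eBayes without trend, quantile normalization, no filter, a filter at 50, a replicate block, other distances, and leaving out each sample. The restriction to protein-coding genes was added after the data were seen. Libraries of 1 genotype were further apart than sampling noise (chi-square per gene 1.80 to 6.17, against 20.9 to 35.2 between genotypes), so all counted as replicates. The labels call them biological replicates without naming animals, and no sequencing batch is named. For genes with few reads, counting error limits the precision, and the spread between samples was beyond it in some members. Intervals cover counting error only, not the spread between samples or the choice of the members by the same difference. The fits were tested on simulated data.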

Additional observations from a re-analysis of the deposited data

Results flagged for a closer look

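In 3 of the 118 groups of 4 samples examined, over the members and the other genes named, a single sample lay far from the others, while chance alone would mark about 1 in 20 groups. Replicate 1 of the Phgdh fl/fl TEMs had 21.4 normalized counts of Tpbgl, against 12.4 to 13.4 in the other controls. Replicate 3 of the Phgdh fl/fl TEMs had 62.0 normalized counts of Folr1, against 38.1 to 42.0. Replicate 1 of the Phgdh fl/fl TEMs had 4643 normalized counts of Stard9, against 3835 to 3899. In each of these genes the samples of the genotypes still did not overlap.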

How the results depend on the processing

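The number of called genes over the whole table, 5594, ranged from 4966 to 5917 when single samples were omitted. The 5917 came from leaving out control replicate 1, and each other omission gave at most 5117. Under the other alternatives the number ranged from 4930 to 5608, with the lowest count from eBayes without trend. In the stretch of chromosome 7 the 91 called non-members became 81 to 94 with a sample left out. Among the neighbours within 1 Mb the 76 called genes became 67 to 78, and in the lists of relatives and partners the 49 became 42 to 49. A distance of 0.5 Mb gave 48 of 85 neighbours and a distance of 2 Mb 118 of 240, as fewer or more genes were counted. The balance of directions moved with the scaling, from 2830 higher and 2764 lower to 3146 and 2450 with total reads and to 2658 and 2897 with quantile normalization. Without the filter the share called was 46.7% in the stretch and 29.7% over the table, and with a filter at 50 it was 71.7% and 48.2%. Widened by 2 Mb on each side, the stretch had 105 of 183 called. The replicate block, with the sample numbers as pairs, called 5597 genes, 77 neighbours, 91 genes of the stretch and 49 relatives. The deviations of same-numbered samples correlated at 0.0628, 0.0977, 0.126 and 0.0776, not all above 0.1, so the numbers were not taken to pair the samples. The other pairs ranged from -0.124 to 0.135, the highest being control replicate 1 with Cre replicate 4. No member changed direction under these settings. The 3 members with fewest reads in controls moved with the pseudocount or the tool, with log2 fold changes up to 8.65 for Crym, 7.05 for Slc15a2 and 3.87 for Slco2b1. Depth limits Crym and Slc15a2 most, with 0 and 5 reads over the 4 controls.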
